A study of Mus musculus with 4 samples.

Results

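The genes described here were those compared between liver pools of 15 month and 3 month old male C57BL6 mice (C57BL/6Rj in the study's methods), gene by gene across the whole table of counts. Members were all gene symbols with at least 20 reads summed over these 2 pools, after 16 candidate genes of the study for normalisation were left aside, which gave 4949 of the 33924 symbols in the tables. At that limit, 161 symbols had exactly 20 summed reads and 195 had 19. The 3 month group was labelled Young and the 15 month group Old, and the labels give no genotype or treatment beyond the strain. Each pool combined 1 μg of RNA from each of 24 mice, taken 4 at a time at 6 points around the day, so that every value is an average over the day and over animals. Pools of 9 and 21 month old mice (Adult and Very old) were made the same way and are given beside the members where they help. With a single pool at each age, no replicate error could be given and no test between ages was possible. The intervals below are exact 95% Clopper-Pearson intervals that cover counting error only, and the reads carried no molecular identifiers.

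The liver makes most proteins of the blood plasma, stores and releases glucose, builds fatty acids, cholesterol and bile acids, and clears ammonia and foreign compounds. Most of this work is done by hepatocytes, while Kupffer cells (resident macrophages), stellate cells (stores of vitamin A and a source of matrix), endothelial cells, bile duct cells and lymphocytes make up the remainder. The assay read the 5′ ends of RNA that resisted an exonuclease that degrades RNA with a free 5′ phosphate, which favours capped RNA. Hepatocyte genes were among the most abundant in both pools. Alb, which encodes albumin, had 52169 reads at 3 months and 29404 at 15 months, and Cps1, the entry enzyme of the urea cycle, had 2790 and 1504.

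The 15 month library was the shallowest of the 4. Its reads on genes summed to 525772, and those of the 3, 9 and 21 month libraries to 955934, 958586 and 735962. Counts were therefore scaled by the trimmed mean of M values (TMM), which set 1 read at 3 months equal to 0.548 reads at 15 months, close to the ratio of the totals of 0.55. A ratio below is the scaled level at 15 months over that at 3 months. A gene was called higher when its ratio was at least 2 with an interval clear of 1, and lower when it was at most 0.5 with an interval clear of 1. Where a library held no read, the ratio was calculated against a floor of 3 reads in that library, and the limit of the counting interval is given beside it.

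Most genes kept a similar level at both ages. The median log2 ratio of the members was 0.01 (95% interval of the median -0.02 to 0.03, from the order of the genes, which are not replicates), and 79.6% of the genes lay within 2-fold. The quartiles of the log2 ratio were -0.45 and 0.49. Of the 4949 genes, 405 were called higher (8.18%) and 339 were called lower (6.85%). These shares over all genes are the background for every group below. They depended on the read count, as shown next, and no group was matched for it. Without regard to the interval, 496 genes were past 2-fold upwards and 516 downwards. The choice of scale mattered for the direction. Gapdh, a glycolytic enzyme gene often taken as a reference, had 1363 reads at 3 months and 437 at 15 months, a TMM-scaled ratio of 0.585. With Gapdh as the scale the median log2 ratio was shifted to 0.78, and 1664 genes were called higher and 52 lower, which is 97% of calls higher in place of 54.4%. All directions below are therefore those relative to the bulk of the genes. In bulk tissue, fewer cells of a type and less RNA per cell cannot be told apart.

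**Figure D1:**
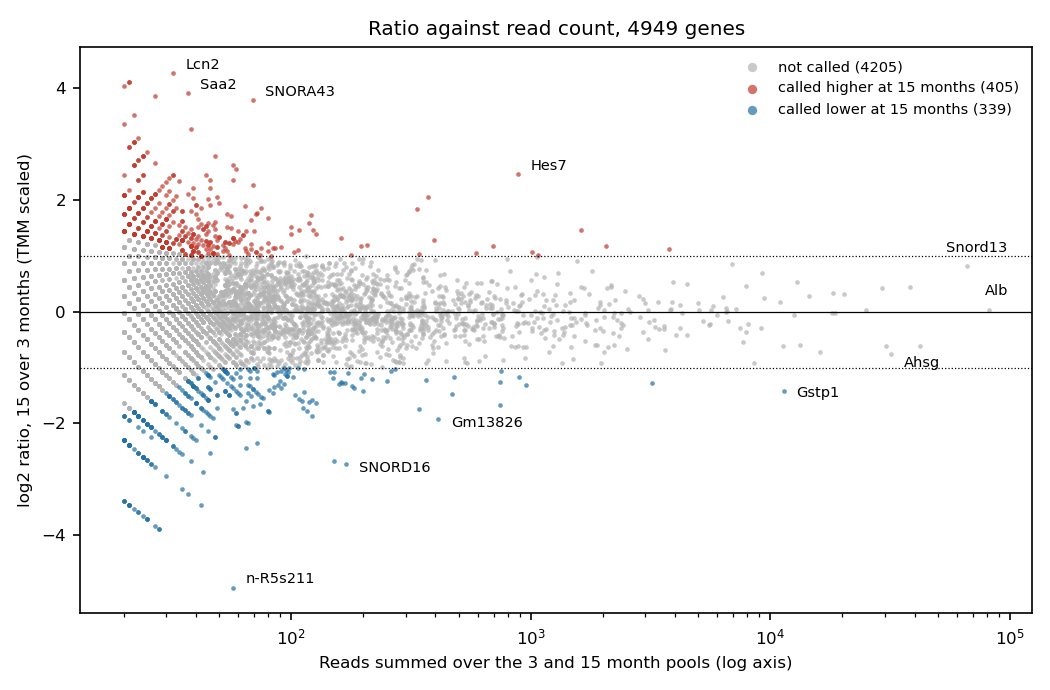
Each point is 1 of the 4949 genes, with the reads summed over the 3 and 15 month pools on a log axis and the TMM-scaled log2 ratio of 15 over 3 months on the vertical axis. Dotted lines mark 2-fold, the 405 red and 339 blue points are the genes called higher and lower, and the scatter narrows from left to right.

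Calls were concentrated in genes with few reads. Among the 2601 genes with 20 to 49 summed reads, 12.5% were called higher and 8.19% lower. Among the 317 genes with 500 or more, 2.52% and 2.21% were called. The spread of the log2 ratios was wider than counting alone gives at every depth. Its SD was 1.05 in the first of these classes, where the counting error was 0.615 (root mean square), and 0.472 in the second, where the counting error was 0.0941. The precision of a gene followed its count as well. A gene with 20 summed reads could only be called from a ratio of 2.74 upwards or, with reads in both libraries, 0.203 downwards, and one with 1000 summed reads from 2.01 or 0.4996.

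Small nucleolar RNAs (snoRNAs) were the class with the largest share of genes called higher among classes with at least 20 members. They guide chemical modification of ribosomal RNA (box C/D snoRNAs guide 2′-O-methylation, box H/ACA snoRNAs pseudouridylation), and most of them are cut from introns of host genes. Of 74 small nucleolar and Cajal body RNAs among the members, 18 were called higher and 6 lower, with a median log2 ratio of 0.62 and 54 above 1. The reads of the whole snoRNA class made up 7.19%, 12.6%, 10.5% and 8.33% of the libraries of 3, 9, 15 and 21 months, so that the 3 month pool held the smallest share. The following sequences are shown because they carried the contrasts within this class. Read 5′ to 3′, capitals mark the core of box C (TGATG) and box D (CTGA) of the box C/D snoRNAs and the H box and ACA of Snora7a.

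SNORD16: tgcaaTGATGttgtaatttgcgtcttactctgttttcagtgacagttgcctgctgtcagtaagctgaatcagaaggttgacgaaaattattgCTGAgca
Snord16a: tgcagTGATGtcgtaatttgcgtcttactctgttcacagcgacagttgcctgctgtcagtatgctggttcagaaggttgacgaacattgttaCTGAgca
Snord72: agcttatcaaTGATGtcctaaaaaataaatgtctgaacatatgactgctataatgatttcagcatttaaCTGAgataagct
Snord89: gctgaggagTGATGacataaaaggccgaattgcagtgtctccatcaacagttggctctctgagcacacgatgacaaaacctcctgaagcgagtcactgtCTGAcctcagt
Snora7a: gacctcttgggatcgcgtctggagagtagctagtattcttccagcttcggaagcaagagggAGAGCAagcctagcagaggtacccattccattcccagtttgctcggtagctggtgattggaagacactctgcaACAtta

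SNORD16 (chr9:64024468-64024566, plus strand, build NCBIM37, which is mm9) and Snord16a (chr9:64023230-64023328, plus strand) lie in introns of Rpl4 and are identical at 88 of 99 positions. SNORD16 had 157, 82, 13 and 99 reads at 3, 9, 15 and 21 months, a ratio of 0.151 (0.0787 to 0.266). Snord16a had 292, 100, 48 and 245 reads in the same order, a ratio of 0.3 (0.216 to 0.408). Both were lowest at 15 months. Their host Rpl4, a ribosomal protein gene, had 49 reads at 3 months and 41 at 15 months, a ratio of 1.53 (0.983 to 2.36). The intervals of both snoRNAs were clear of that of the host.

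Snord72 (chr15:5068404-5068484, plus strand), which lies in an intron of Rpl37, went the other way. It had 113, 170, 221 and 110 reads at 3, 9, 15 and 21 months, a ratio of 3.57 (2.83 to 4.52), while Rpl37 had 40 reads at 3 months and 5 at 15 months, a ratio of 0.228 (0.0702 to 0.578). Snora7a (chr6:115757993-115758132, minus strand) had 921, 1147, 1145 and 773 reads, a ratio of 2.27 (2.08 to 2.48), against 0.942 (0.754 to 1.17) for its host Rpl32. Snord89 (chr1:39605590-39605699, minus strand) had 14, 39, 45 and 37 reads, with the lowest level at 3 months and a ratio of 5.86. Over the 19 snoRNAs with a single locus whose host gene was also a member, 10 had a ratio above that of the host and 9 below it, so that neither order prevailed.

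**Figure D2:**
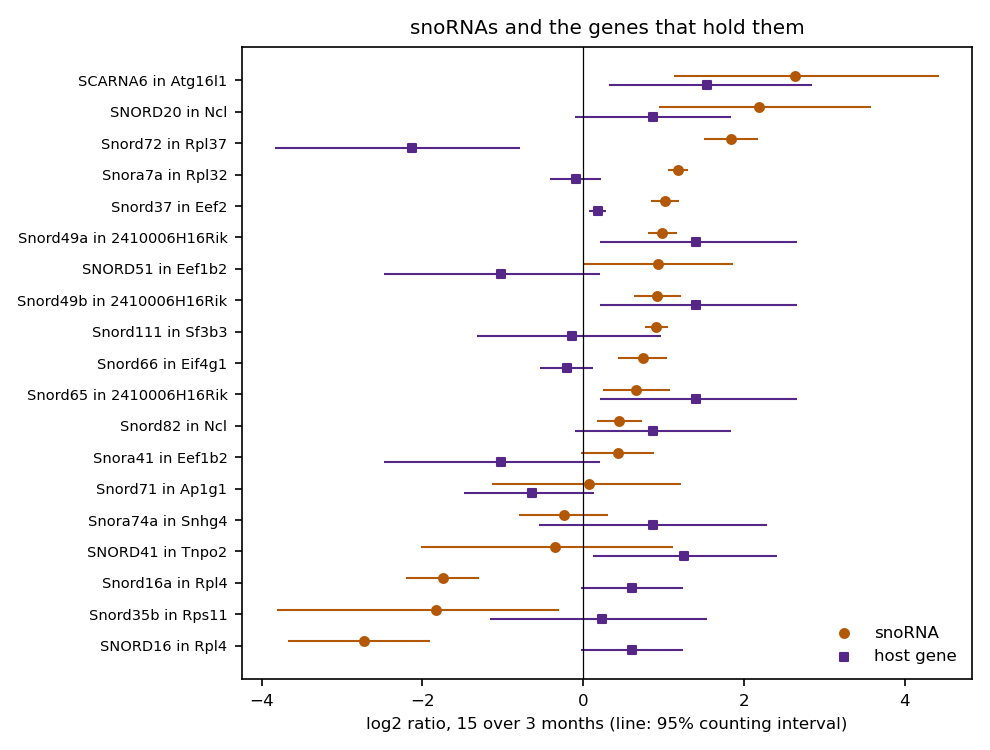
The 19 snoRNAs (circles) and the host gene that holds each (squares), with the log2 ratio of 15 over 3 months on the horizontal axis and lines for the 95% counting interval. Snord72 and its host Rpl37 lie on opposite sides of 0, as do SNORD16 and Snord16a and their host Rpl4.

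The most abundant snoRNA was Snord13, which is transcribed from a gene of its own, with 33581 reads at 3 months and 32468 at 15 months and a ratio of 1.76 (1.74 to 1.79). The U3 RNAs, which act in cutting the ribosomal RNA precursor, had 12112, 43933, 4048 and 11891 reads at 3, 9, 15 and 21 months and a ratio of 0.61, with the highest level at 9 months. SNORA43, with 8, 20, 61 and 32 reads, had the largest ratio of the class (13.9, 6.63 to 33.7), but its symbol covers 2 loci. Of the 74 members of this list, 26 had symbols that cover several loci. Among those called higher they were also SNORA17 (611 loci), SNORA48 (30), SNORA71 (15), SNORA5 (9), SNORA36 (8), SCARNA21 (3) and SNORD73 (2). Such a count cannot be given to a single gene. The 6 called lower had 1 locus each. Snora78, in the host transcript Snhg9, fell outside this pattern with 139, 24, 12 and 20 reads, a ratio of 0.157, and was high at 3 months only. Many intronic snoRNAs carry no cap. The part of the exonuclease step in these differences was not tested.

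Acute phase genes, which the liver switches on during inflammation, held 4 of the called genes. Of 22 members, 4 were called higher and none lower, with a median log2 ratio of 0.26 and 15 above 1. Lcn2, an iron-siderophore binding protein, had no read at 3 months against 9, 32 and 23 reads at 9, 15 and 21 months, with a ratio of 19.5 against the floor of 3 reads and a lower limit of the counting interval of 14.9. Saa2, a serum amyloid A protein, had 4, 11, 33 and 4 reads and a ratio of 15 (5.35 to 58.5). Its neighbour Saa1 had 11, 11, 28 and 17 reads and a ratio of 4.64 (2.24 to 10.3). Orm2, an orosomucoid, had 39, 46, 61 and 47 reads and a ratio of 2.85 (1.88 to 4.38). In all 4 genes the 15 month pool held the most reads, although it was the shallowest library. The abundant genes of the list were not called. Hp, encoding haptoglobin, had 2541 and 1967 reads at 3 and 15 months and a ratio of 1.41 (1.33 to 1.5), while the fibrinogen genes Fga, Fgb and Fgg had ratios of 0.864, 0.962 and 0.778.

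The start regions of the 4 called acute phase genes are shown with a box of letters found near the start of each. Each run covers the 100 bases before the RefSeq start and the first 20 bases of the transcript (RefSeq of GRCm38.p6, placed on NCBIM37 by exact match), and capitals mark a TATAAA or CATAAA box.

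Lcn2: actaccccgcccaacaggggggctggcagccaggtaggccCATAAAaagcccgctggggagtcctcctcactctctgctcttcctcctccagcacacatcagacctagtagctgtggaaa
Saa1: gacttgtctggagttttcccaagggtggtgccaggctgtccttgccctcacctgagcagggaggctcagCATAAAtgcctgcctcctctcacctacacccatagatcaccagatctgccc
Saa2: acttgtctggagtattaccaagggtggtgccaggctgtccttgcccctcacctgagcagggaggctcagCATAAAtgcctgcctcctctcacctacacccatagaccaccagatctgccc
Orm2: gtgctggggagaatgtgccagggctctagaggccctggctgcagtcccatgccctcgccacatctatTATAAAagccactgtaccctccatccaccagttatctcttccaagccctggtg

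They lie at chr2:32243240-32243359 (minus strand), chr7:53998331-53998450 (minus strand), chr7:54007103-54007222 (plus strand) and chr4:63023383-63023502 (plus strand). All 4 hold such a box on the strand of the gene between 60 and 15 bases before the start, but this stretch was widened to take in the box of Lcn2, and Saa1 and Saa2 are near-copies. Such a box was found there in 4.75% of 22862 promoter windows. The share was 3.36% of the 2768 members with a single window and 3.37% of the 208 of these called higher, so the 2 were alike. TATAAA alone at 40 to 20 bases before the start, which of the 4 genes Orm2 holds, was found in 2.42%, 1.91% and 0.962% in the same order. Saa1 and Saa2 were 96% identical over the aligned bases before the start, and their reads can be told apart only at the few positions that differ. Of the 32-base windows in the first 100 bases of Saa2, 59.4% occur elsewhere in the genome as well.

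Markers of several other cell types were called higher at 15 months. Of 22 Kupffer cell and myeloid markers among the members, 4 were called higher and none lower, with a median log2 ratio of 0.25 and 16 above 1. They were Timd4, a receptor for dying cells (16, 31, 34 and 25 reads at 3, 9, 15 and 21 months, ratio 3.88), the scavenger receptor Marco (10, 18, 20 and 30 reads, ratio 3.65), the lysosomal protease Lgmn (25, 27, 50 and 17 reads, ratio 3.65) and the oxidase subunit Cybb (24, 36, 33 and 33 reads, ratio 2.51). The Kupffer cell genes with most reads were not called, with a ratio of 1.37 (1.14 to 1.63) for Cd5l and 0.961 (0.707 to 1.3) for Clec4f. Cd68 had the lowest ratio of the list, 0.438 (0.147 to 1.09) on 25 and 6 reads at 3 and 15 months, and was not called. The whole marker list summed to 1263, 1517, 891 and 1323 reads before scaling, a scaled ratio of 1.29 at 15 over 3 months. In it 4 listed markers had no read in either pool, among them Lyz1 and Itgam.

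Stellate cell, fibroblast and matrix markers had the highest median of all lists with at least 5 members, a log2 ratio of 0.82 (0.52 to 1.36). Of 18 members, 5 were called higher, none was called lower and 14 lay above 1. Col1a2, a chain of type I collagen, had 25, 20, 46 and 31 reads at 3, 9, 15 and 21 months and a ratio of 3.36 (2.02 to 5.7). Lrat, which esterifies retinol, had 18, 31, 26 and 23 reads and a ratio of 2.63 (1.39 to 5.1). Col14a1 and the pericyte gene Rgs5 had ratios of 2.74 and 2.58. The more abundant matrix genes Dcn (decorin, 192 and 162 reads at 3 and 15 months) and Ecm1 (231 and 203 reads) had ratios of 1.54 (1.24 to 1.91) and 1.6 (1.32 to 1.94), above 1 but not called. The list summed to 1177, 1638, 1042 and 1377 reads, a ratio of 1.61 at 15 months, so the sum was lowest at 3 months once scaled.

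Sinusoidal endothelial markers did not follow, with a median of -0.1. Of 25, 1 was called higher (4%) and 2 lower (8%), against 8.18% and 6.85% of all members. Stab2, a scavenger receptor of these cells, had 137 and 35 reads at 3 and 15 months and a ratio of 0.466. Only 3 lymphocyte markers had enough reads. Ighm, the constant region of the IgM heavy chain, had 2, 8, 19 and 39 reads and a ratio of 17.3 (4.18 to 153), and its count was higher in each older pool. Coro1a, an actin regulator of blood cells, had a ratio of 2.74 on 10 and 15 reads. Defining T cell and B cell genes (Cd3d, Trac and Ms4a1) had no read in either pool. Of 5 cholangiocyte markers, 2 were called lower, the keratins Krt8 and Krt18 (72 to 16 and 137 to 31 reads, ratios of 0.405 and 0.413), which hepatocytes express too. The osteopontin gene Spp1 was called higher on 13 and 16 reads (ratio 2.24, 1.01 to 5.07), and Epcam was at 0. The part of cell composition in these differences was not tested.

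Both members that encode digestive enzymes of the pancreas had most reads at 21 months. Ctrb1, encoding chymotrypsinogen, had 26, 6 and 77 reads at 3, 9 and 21 months and none at 15 months, with a ratio of 0.21 against the floor of 3 reads and an upper limit of the counting interval of 0.278. Cela1, an elastase gene, had 14, 8, 9 and 28 reads and was not called (ratio 1.17, 0.448 to 2.91). The list of adipose, muscle and pancreas markers summed to 121, 78, 24 and 231 reads in the same order, with 17 of 29 listed markers, Ins1, Ins2 and Adipoq among them, at 0 in both pools.

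Genes of fatty acid and cholesterol synthesis tended to lower ratios. Of 33 members for fatty acid and triglyceride synthesis, 4 were called lower and 1 higher, with a median log2 ratio of -0.33 (-0.61 to -0.03). The called genes were Acacb, which makes malonyl-CoA at mitochondria (108 reads at 3 months and 19 at 15 months, ratio 0.321), the elongases Elovl1 (59 and 12 reads, ratio 0.371) and Elovl3 (295 and 69 reads, ratio 0.427), and the malic enzyme Me1 (84 and 23 reads, ratio 0.499). Scd1, the desaturase that makes oleate, had 22386, 12989, 8035 and 15101 reads at 3, 9, 15 and 21 months and a ratio of 0.655 (0.638 to 0.672). Cd36, a fatty acid carrier, was called higher, with 34 and 41 reads and a ratio of 2.2. Of 27 genes for cholesterol synthesis and LDL uptake, 4 were called lower and none higher, with a median of -0.25. They were Sqle and Fdft1, enzymes of the squalene step (ratios of 0.298 and 0.336), Mvd of the mevalonate pathway (0.358) and the oxysterol receptor Nr1h3 (0.497). With Gapdh as the scale none of these 8 calls remained, and 8 and 5 genes of the 2 lists were called higher.

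Among genes of fatty acid oxidation, 3 of 45 were called lower (6.67%) and 2 higher (4.44%). Neither share was above the background of 6.85% lower and 8.18% higher, so the genes below are single cases. Cyp4a14 and Cyp4a10, omega-hydroxylases of fatty acids and targets of PPARα, had 106 and 36 reads at 3 months and 16 and 6 at 15 months, with ratios of 0.275 (0.152 to 0.468) and 0.304. In all 3 older pools Cyp4a14 had fewer reads than at 3 months (35 at 9 months and 24 at 21 months). The third gene called lower was Acsm3, an acyl-CoA synthetase, with 82 and 20 reads and a ratio of 0.445. In the list of glucose production and use, Pdk4, which shuts off pyruvate oxidation in fasting, had 19 and 2 reads and a ratio of 0.192. The rest of the 31 cytochrome P450 genes was mixed, with 2 called higher and 4 lower in all. Cyp2e1, the most abundant, had 12112 and 8264 reads and a ratio of 1.24, and Cyp2c37 had 43 and 65 reads and a ratio of 2.76. Every 32-base window in the first 100 bases of Cyp2c37 occurs elsewhere in the genome as well, so its single count is uncertain.

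The largest difference by number of reads among the called genes was in Gstp1, a glutathione transferase of the pi class that is much higher in male than in female mouse liver. It had 9437, 6068, 1941 and 3848 reads at 3, 9, 15 and 21 months, a ratio of 0.375 (0.357 to 0.394), with 3 months highest and 15 months lowest. The 31 phase II conjugation enzymes as a group had a median of -0.31. Of them 2 were called lower (6.45%) and 1 higher (3.23%), against 6.85% and 8.18% of all members. Gstm1, with 5584 and 2105 reads, had a ratio of 0.688.

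Of 47 genes for amino acid and one-carbon metabolism, 4 were called lower (8.51%) and 1 higher (2.13%), against 6.85% and 8.18% of all members. Of the 47, 34 lay below 1 (median -0.19). Bhmt, which remethylates homocysteine with betaine, had 719, 782, 176 and 567 reads at 3, 9, 15 and 21 months and a ratio of 0.446 (0.376 to 0.527). Its relative Bhmt2 had 101, 84, 18 and 61 reads and a ratio of 0.325. In both genes the 15 month pool alone was low. Agxt and Prodh2, which handle glyoxylate and hydroxyproline, had ratios of 0.456 and 0.407. Bckdhb, a subunit of the enzyme that breaks down branched-chain keto acids, was called higher on 3 and 19 reads (ratio 11.6, 3.4 to 61).

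Ribosomal protein and proteasome genes held several calls downwards, and translation factor genes held calls in both directions. Of 50 cytosolic ribosomal protein genes, 6 were called lower and 1 higher, with a median of -0.17 (-0.45 to 0.22). Rpsa, a protein of the small subunit that also binds laminin, had 2620, 1049, 591 and 708 reads at 3, 9, 15 and 21 months and a ratio of 0.411 (0.376 to 0.45). Rpl10a had 390, 169, 77 and 173 reads and a ratio of 0.36. Both genes were highest at 3 months. In Rpsa, 62.3% of the 32-base windows in the first 100 bases occur elsewhere in the genome as well. The other genes called lower were Fau, Rps29, Rpl37 and Rps27a, with ratios from 0.192 to 0.478. Eif4ebp1, a translation repressor controlled by mTOR, went the other way with 641, 1113, 973 and 1054 reads and a ratio of 2.77 (2.5 to 3.06), and it was lowest at 3 months. Of 33 translation factor genes, 2 were called higher (6.06%) and 1 lower (3.03%), both below the background of 8.18% and 6.85%. Their median was 0.09 (-0.13 to 0.24), with 21 above 1. Eif5b had the highest ratio (8 and 16 reads, ratio 3.65) and Eif3f the lowest (203 and 47 reads, ratio 0.422). Of 28 proteasome subunit genes, 6 were called lower and none higher, with a median of -0.27 (-0.76 to 0.13). They were Psmb2, Psmb3, Psmb5 and Psmb6 of the core and Psmd8 and Psmd12 of the cap, with ratios from 0.076 to 0.486. With Gapdh as the scale 1 ribosomal protein gene and 1 proteasome gene stayed lower, and 13 and 4 were called higher.

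In the respiratory chain, 6 of 69 nuclear-encoded genes were called higher and 3 lower, with a median of -0.04. The share called higher, 8.7%, was close to the background of 8.18%. Split by complex after the values were seen, 4 of the 32 complex I subunit genes were called higher and none lower (median 0.4, 23 above 1), against 2 higher and 3 lower of the other 37 (median -0.23). The 4 were Ndufs3, Ndufs4, Ndufs7 and Ndufv2, with ratios of 5.17, 3.15, 3.31 and 3.04. Ndufs7 rested on 43, 57, 78 and 111 reads at 3, 9, 15 and 21 months. The genes called lower were Cox5b (87 and 17 reads, ratio 0.356), Cox7c (150 and 32 reads, ratio 0.389) and Sdhb (36 and 9 reads, ratio 0.456). No mitochondrially encoded gene could be compared, since all 37 listed in the tables were at 0. Of 14 interferon-stimulated genes, 2 were called lower (Irf7 on 37 and 5 reads and Ifit3 on 19 and 3 reads) and none higher, and their median was the lowest of the lists with at least 5 members (-0.6, -1.03 to 0.09).

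**Figure D3:**
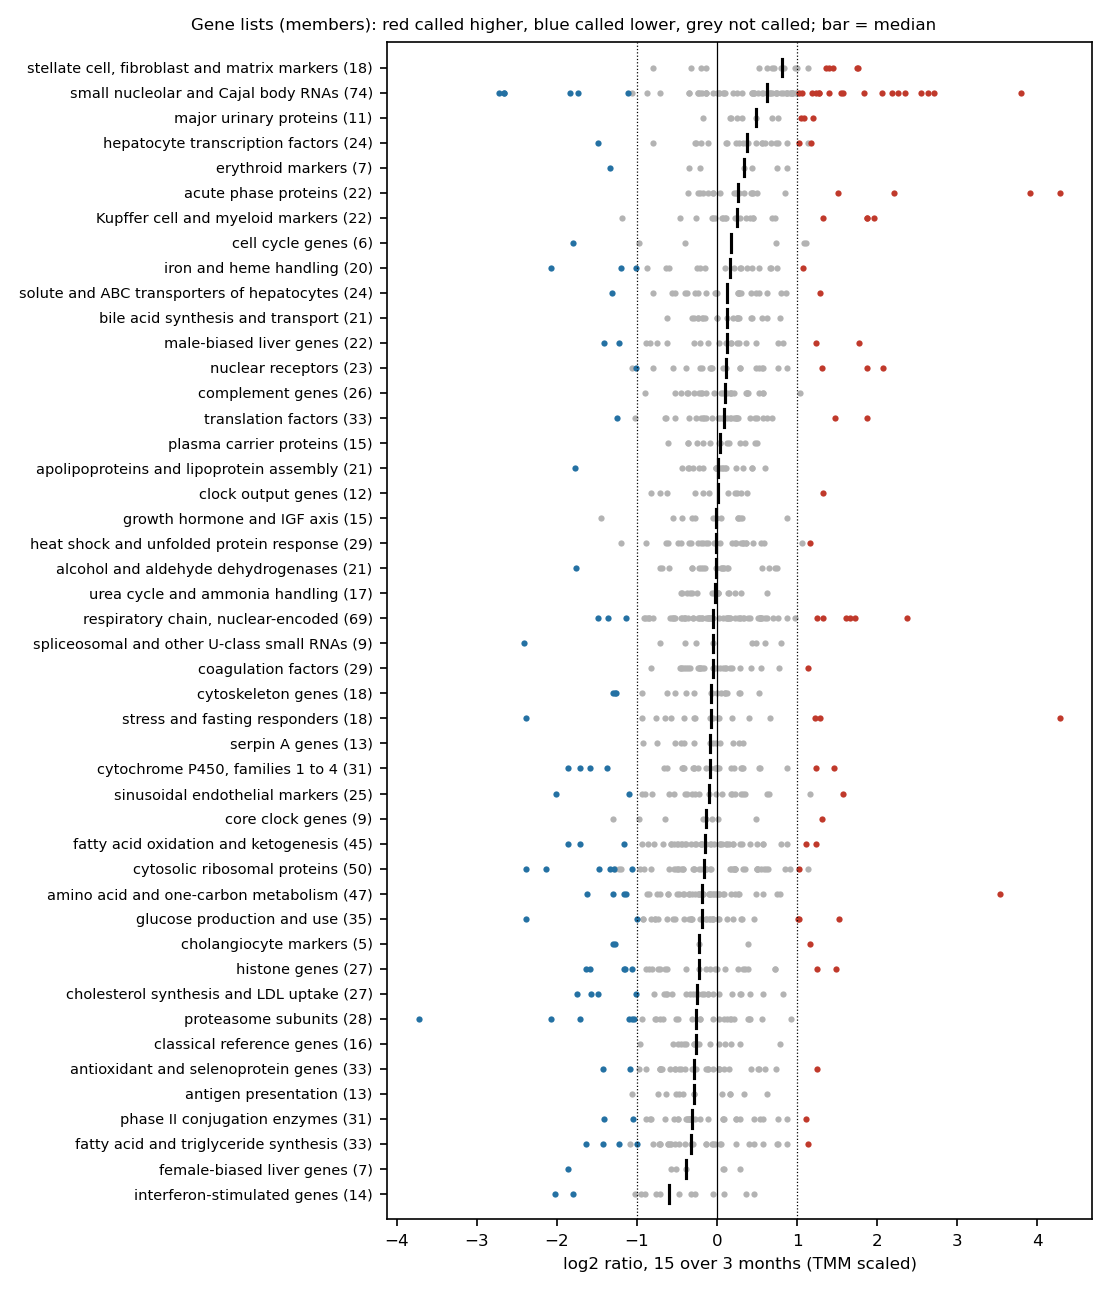
TMM-scaled log2 ratios of 15 over 3 months for the members of each gene list with at least 5 members, ordered by the median (black bar), with the number of members in brackets. Red and blue points are genes called higher and lower, grey points were not called, and dotted lines mark 2-fold. With Gapdh as the scale every point and median moves by 0.77 to the right.

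Major urinary proteins, pheromone carriers made by male liver, lay above 1 in 10 of 11 members (median 0.49, 0.17 to 1.09), and 3 were called higher. Mup12 had 277, 679, 314 and 321 reads at 3, 9, 15 and 21 months and a ratio of 2.07, whereas the most abundant, Mup3, had a ratio of 1.19 (1.14 to 1.24). These genes are near-identical copies, so their single counts are uncertain. Hepatocyte transcription factors had a median of 0.37 (0.12 to 0.67) with 18 of 24 above 1. Foxa2 was called higher on 17 and 21 reads and Foxa1 lower on 41 and 8 reads, while Hnf4a had a ratio of 1.08 (0.908 to 1.29). Histone genes were called lower in 5 of 27 cases and higher in 2.

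Several groups held no called gene. Calls were rare among all genes with many reads (2.52% higher and 2.21% lower at 500 or more summed reads). No call in a group rich in such genes therefore does not set it apart. None of 15 plasma carrier, 26 complement, 13 serpin A, 15 growth hormone and IGF, 17 urea cycle, 21 bile acid, 13 antigen presentation and 16 classical reference genes was called in either direction. Some of their abundant genes still differed beyond counting error. Serpina1e, an antitrypsin gene, had 24059 and 7857 reads at 3 and 15 months and a ratio of 0.596 (0.581 to 0.611), Ahsg, encoding fetuin-A, had 31088 and 11136 reads and a ratio of 0.653 (0.639 to 0.668), and complement C3 had 7230 and 5718 reads and a ratio of 1.44 (1.39 to 1.49). In the coagulation list the call was Kng1, encoding kininogen, with 1719, 4701, 2065 and 2569 reads at 3, 9, 15 and 21 months and a ratio of 2.19 (2.05 to 2.34). In Kng1, 54.3% of the 32-base windows in the first 100 bases occur elsewhere in the genome as well. Closest to 1 among genes with over 1000 summed reads were Col18a1, Nrn1 and Cyp2f2, each with a ratio of 1.0. Of the other abundant genes, Eef1a1 (translation elongation), Apoe and Apob (lipoproteins) had ratios of 1.03, 0.989 and 0.987, and the spliceosomal U1 RNAs had 1.35.

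Of the genes ranked by how far the interval lay from 1, Hes7 had by far the most reads among those called higher. Hes7, a transcriptional repressor of the Notch pathway, had 219, 573, 666 and 311 reads at 3, 9, 15 and 21 months and a ratio of 5.55 (4.75 to 6.49). It overlaps 9130213A22Rik on the opposite strand, and whether the counting used the strand is not given in the sources used here. The microRNA locus mmu-mir-689-2 had 114, 163, 259 and 66 reads and a ratio of 4.14, but every 32-base window of it occurs elsewhere in the genome. The remaining genes of that rank called higher, Dpy19l3, Afg3l2, Plekhb1, Mat2b, Dopey2, Cox19 and Ppl, had between 2 and 13 reads at 3 months and between 17 and 44 at 15 months. Among those called lower, a 5S ribosomal RNA copy (n-R5s211) had 56, 10, 1 and 26 reads, Gm13826 had 359, 313, 52 and 180 reads (ratio 0.264, 0.194 to 0.354) and the pseudogene Gm12563 had 636, 148, 109 and 243 reads (ratio 0.313). Ube2q1, Gm10447, Fam124a, Nudt22, 2610029G23Rik, AL772349.1 and Gm17475 had between 20 and 24 reads at 3 months and none at 15 months, and Commd3 had 40 and 2.

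**Figure D4:**
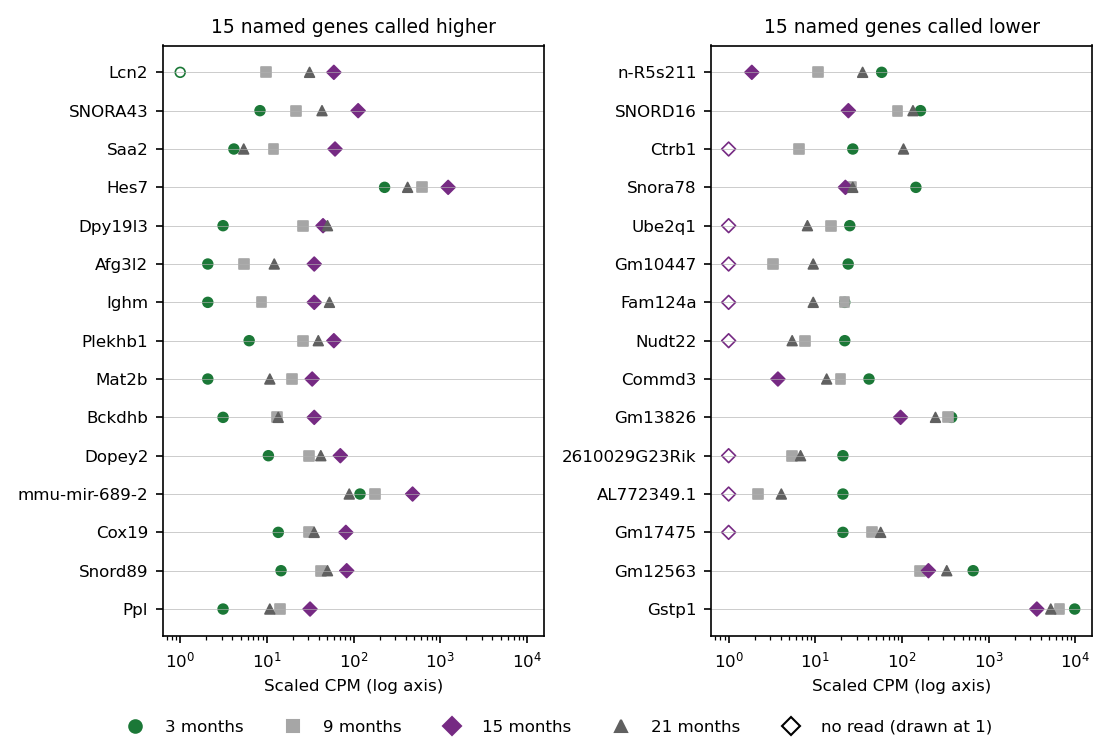
Scaled CPM (counts brought to a common library size) on a log axis for the 15 genes called higher (left) and the 15 called lower (right) whose interval lay farthest from 1, in the pools of 3, 9, 15 and 21 months. Open symbols, drawn at 1, stand for no read, and in most rows the 9 and 21 month pools lie between the 3 and 15 month pools or close to one of them.

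The 9 and 21 month pools took no part in the calls. The genes called higher had median scaled levels of 12.5, 20.6, 37 and 21.6 CPM (counts on a common library size) at 3, 9, 15 and 21 months. For the genes called lower the medians were 35.4, 21.7, 11.1 and 23. The levels at 9 and 21 months both lay between those at 3 and 15 months in 216 of the 405 genes called higher and in 191 of the 339 called lower, and they were chosen for the outer values. The ratio of 21 over 9 months shares no library with the ratio of 15 over 3 months. Its median log2 value was 0.07 (-0.01 to 0.18) for the genes called higher and 0.05 (-0.1 to 0.16) for those called lower, against 0.004 over all members. Both intervals include 0. With at least 100 summed counts the medians were 0.23 for 25 genes called higher and -0.15 for 44 called lower, so that the sign of the latter turned. By the same rule, 8.64% of the genes called higher were past 2-fold upwards at 21 over 9 months and 6.67% downwards, against 5.76% and 5.58% of all members. Of the genes called lower, 10.3% were past 2-fold upwards and 7.08% downwards.

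Sequence features were compared between the called genes and all members as a description, without a test. The median length of the longest transcript was 3286 bases over 4743 protein-coding members, 3670.5 bases for those called higher and 2968 bases for those called lower. The GC content of the first 100 bases had a median of 60.5% over all and of 61% in both called groups. A repeated 32-base window in these bases was found in 17.7% of all, 19.9% of those called higher and 16.6% of those called lower. A RefSeq promoter window (250 bases before to 50 after the start) was matched for 3523 members and was single for 2768. The GGGCGG box was present on either strand in 64.8% of these, in 66.8% of the genes called higher and in 64.6% of those called lower. The palindrome TTCNNNGAA, read by STAT factors, was found in 6.97%, 7.21% and 3.17%, and TGACGTCA, read by CREB, in 3.07%, 4.81% and 1.59%. The shares among genes called lower rest on 6 and 3 of 189 genes. These 2 were picked from a longer set of letters searched. In that set CCAAT was found in 39.7%, 41.8% and 38.6%, and CACGTG in 10.4%, 9.13% and 8.99%. A match is a description of the letters only.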

How the data were processed

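RNA of 4 liver pools (3, 9, 15 and 21 months, 24 mice each) was digested with a 5′-phosphate-dependent exonuclease, decapped, linked to barcodes and sequenced by the authors on 1 SOLiD lane with 35-base reads, which they mapped in CLC Genomic workbench (mm9). The submitters' processing notes also name HTSeq. The deposited values were raw counts per gene symbol, without normalisation by the authors. The 5 closing rows, which name no gene, were left out. Records aligned to more than 1 place made up 72.2% to 76.7% of all records, those outside genes 15.5% to 19%, and those on genes 6.67% to 8.42%.

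Counts were scaled by TMM (edgeR 4.0.16, R 4.3.3) over the 3 and 15 month libraries. Intervals, calls and lists were calculated with Python 3.11.15, numpy 2.4.6, pandas 2.3.3 and scipy 1.17.1, and figures drawn with matplotlib 3.10.9. The confidence level was 95% and the floor 3 reads per library. The calling procedure was run on simulated Poisson counts with known changes. These hold counting error only, so that run cannot show how often pools differ for other reasons. Alternatives were DESeq2 (1.42.0) size factors, library totals, Gapdh, TMM over 4 libraries, other filters, folds and intervals, and thinned counts. With 1 pool per age no p-value was calculated and no library could be left out.

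Named were the 15 genes in each direction whose interval lay farthest from 1, the 12 most abundant members, the 3 with over 1000 reads closest to 1, and in each list the 2 most abundant genes and those with the highest and lowest ratio. Other called genes of the lists, and the sequences shown, were chosen after their values were seen, and some genes of the lists are not reported here by name. Members and lists were chosen with earlier results of these data known. Gene positions and introns came from the annotation of NCBIM37 (mm9). The exact 95% interval of a list's median came from the order of its members.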

Additional observations from a re-analysis of the deposited data

How the results depend on the processing

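With DESeq2 size factors, library totals, TMM over 4 libraries or protein-coding genes only, the counts of genes called higher (405) and lower (339) moved by less than 1.5 times. With Gapdh as the scale they were 1664 and 52, since every ratio is multiplied by the same factor. All 405 genes called higher were called higher again and 287 of those called lower were lost. Without a filter beyond 1 count 989 were called higher. With at least 100 summed counts 25 and 44 remained, of 1278 genes, and with at least 20 counts in 1 library 203 were called higher. With 3 month counts thinned to the depth of the 15 month library 223 were called lower. A 3-fold limit left 156 and 195, a stricter confidence level 137 and 102, and the fold alone gave 516 lower. The median log2 ratio was 0.78 with Gapdh, -0.027 with TMM over 4 libraries, 0.28 without the filter, -0.0566 with at least 100 summed counts and -0.087 with at least 20 counts in 1 library. The median log2 ratio of 21 over 9 months was 0.23 for genes called higher and -0.15 for those called lower with at least 100 summed counts, and for those called lower it was 0.196 with the 3-fold limit and -0.15 with the stricter confidence level. The cause was not tested for these, beyond the smaller number of genes that each stricter limit leaves. None of 215 recalculated ratios of the genes ranked above changed direction in a called gene, and Gstp1 and Gm12563 no longer passed 2-fold with Gapdh as the scale. List medians relative to all members cannot change with the scale. With protein-coding genes only or thinned counts, 3 of them moved, in the lymphocyte and cholangiocyte lists of 3 and 5 members. No paired analysis was possible because there was 1 pool per age. Counts limit the precision: at 20 summed reads, with reads in both libraries, no ratio between 0.203 and 2.74 could be called.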
